A study of Mus musculus with 9 samples.

Results

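The matrix metalloproteinases (Mmp), the secreted ADAMTS proteases (Adamts) and their tissue inhibitors (Timp) were followed in RNA sequencing libraries of K7M2, an established mouse osteosarcoma cell line. Members were the rows of the deposited gene table whose symbol is Mmp with a number and an optional a or b, Adamts with a number, or Timp1 to Timp4. The rule found 46 of the 55401 genes in the table, 23 Mmp, 19 Adamts and 4 Timp genes, and used no measured value. The series asks how platelets change gene expression in these cells. It holds 3 groups of 3 libraries, untreated cells, cells given mouse platelets, and cells given mouse platelets marked (A/R), a mark that the labels do not spell out. All cells carry the genotype label WT and were grown in DMEM with serum. Titles give 24 h for every library, but the treatment entries run from 24 to 26 h with plain platelets and from 27 to 29 h with (A/R) ones, so labelled hours and (A/R) cannot be told apart. No label says that replicates were separate cultures, so p-values measure the spread between these libraries only, which may be technical.

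Matrix metalloproteinases and ADAMTS proteases are zinc enzymes that cut collagens, proteoglycans and other proteins around the cell. Most are made as inactive precursors and are held in check by TIMPs, small secreted proteins that block the catalytic zinc. In osteosarcoma and other sarcomas these enzymes are studied for their part in invasion and spread, and bone cells use several of them to remodel collagen. TIMP-2 has a double role, since it inhibits these enzymes but also helps the membrane-type enzyme MMP-14 to activate the gelatinase MMP-2. TIMP-3 differs from the other inhibitors in binding to the extracellular matrix, and it also blocks several ADAMTS and ADAM proteases.

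The libraries held 37465049 to 61366030 estimated counts, and a pile-up of genes at 4 counts was read as about 4 counts to a sequenced fragment, a reading that the sources used here do not state. K7M2 RNA carried 5 of 10 osteoblast lineage markers among the genes tested, with Col1a2 at 83.4 to 112 FPKM (fragments scaled to gene length and library size) and Runx2 at 1.92 to 4.17 FPKM. The osteoblast genes Alpl and Ibsp had 0 counts throughout. Sp7 had up to 8 counts in 2 libraries, Bglap up to 8 in 4 and Bglap2 10 in 1. The 10 osteoblast markers summed to 2222 to 2294 CPM (counts scaled to library size only) in untreated cells, 2016 to 2139 with platelets and 1814 to 1892 with (A/R) platelets, and the groups did not overlap. The 16 platelet markers summed to 5.66 to 8.49 CPM in untreated cells, 5.46 to 7.0 with platelets and 5.31 to 5.87 with (A/R) platelets. Ppbp, a platelet chemokine, had 81 to 232 counts, Thbs1 and Gp1bb also had counts in all 9 libraries, and Pf4 had counts in 8. Tubb1, Treml1, Clec1b and Gp6 had 0 counts in all 9. The 13 leukocyte markers summed to 1.07 to 3.74, 1.30 to 8.65 and 1.04 to 2.40 CPM in the same order. Among them Lyz2, a lysozyme of myeloid cells, had 9 to 347 counts in all 9 libraries, Ly6g up to 10 counts in 4 libraries and S100a9 8 counts in 1. Elane, S100a8, Csf3r, Nkg7 and Cd3e had 0 counts throughout. The 7 erythroid markers summed to 0.913 to 1.73, 1.41 to 2.36 and 1.20 to 1.92 CPM.

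The family in K7M2 cells was dominated by its inhibitors. Timp2 alone averaged 316 ± 9.33 FPKM (SD, n = 3) in untreated cells and ranked 120 by FPKM among the 11826 genes tested. Timp1 followed at 31.4 ± 3.3 FPKM and the membrane-type collagenase gene Mmp14 at 14.1 ± 0.814 FPKM. No other member reached a mean of 10 FPKM in any group. Adamts7 (3.57 ± 0.118 FPKM) and Mmp2 (3.27 ± 0.201 FPKM) came next, with libraries of 3.46 to 3.69 and 3.04 to 3.43 FPKM that nearly met. Below them, 7 tested members lay between 0.956 and 2.29 FPKM in untreated cells. Mmp11 (2.04 to 2.54 FPKM) and Adamts10 (2.03 to 2.47 FPKM) overlapped each other and lay above every untreated library of Mmp9, Timp3, Adamts14 and Adamts1. Adamts6, at 1.43 to 2.15 FPKM, overlapped both sides. Timp3 (1.40 to 1.55 FPKM) lay above all untreated libraries of Adamts1, while Mmp9, Timp3 and Adamts14 overlapped one another.

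**Figure D1:**
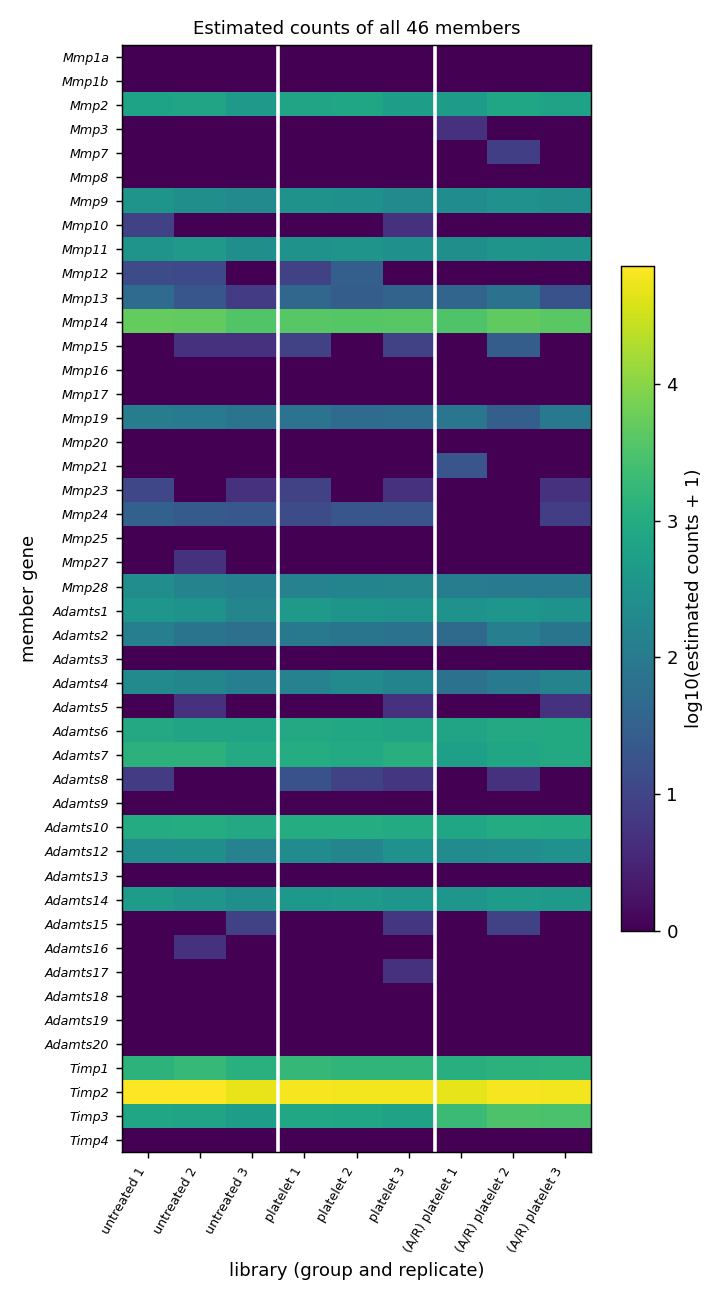
Estimated counts of all 46 members (rows) in the 9 libraries (columns, grouped by treatment), coloured as log10(estimated counts + 1). Timp2 is the brightest row, with 48489 to 72754 counts per library, while 14 rows are at 0 in every library.

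Genes were tested where at least 3 of the 9 libraries had an FPKM of at least 1. By this filter 12 of the 46 members were tested, 4 Mmp (Mmp2, Mmp9, Mmp11, Mmp14), 5 Adamts (Adamts1, Adamts6, Adamts7, Adamts10, Adamts14) and 3 Timp genes. Of these, 11 had an FPKM of at least 1 in all 9 libraries. The exception was Adamts1, which reached it in all 3 platelet libraries but fewer of the others. Among the 34 members not tested, 14 had 0 counts in every library, 16 were detected at under 0.5 FPKM, and 4 (Mmp19, Mmp28, Adamts4 and Adamts12) reached 0.5 FPKM in at least 1 library. The 14 members at 0 were Mmp1a, Mmp1b, Mmp8, Mmp16, Mmp17, Mmp20, Mmp25, Adamts3, Adamts9, Adamts13, Adamts18, Adamts19, Adamts20 and Timp4. At 4 counts to a fragment, a count of 0 allows up to 3 fragments, or 0.320 CPM in the smallest library, and this limit covers counting error only.

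Most of the silent or nearly silent Mmp genes lie side by side. A run of 10 Mmp genes on chromosome 9, from 7272514 to 7699585 in GRCm38, holds the interstitial collagenases (Mmp1a, Mmp1b, Mmp8 and Mmp13), the stromelysins Mmp3 and Mmp10, the macrophage elastase Mmp12, the matrilysin Mmp7, the enamel protease Mmp20 and Mmp27. None of the 10 passed the filter, and 4 had 0 counts in all libraries. Their counts over all 9 libraries came to 381, of which all but 86 belonged to Mmp13, the collagenase of bone and cartilage. Mmp13 had 49, 19 and 6 counts in untreated cells, 39, 26 and 34 with platelets and 38, 68 and 16 with (A/R) platelets. These are few fragments, and the groups overlapped. Mmp8, the neutrophil collagenase, was at 0.

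The promoters of this run share a sequence feature that the choice of members did not use. RefSeq promoter windows (GRCm38.p6) matched 32 of the 46 members, the whole run among them, and the 250 bases before each RefSeq start were searched. The AP-1 element TGANTCA, which reads the same on both strands, is bound by Fos and Jun proteins. It was present in 8 of the 10 genes of the run and in no other matched member, against 6.75% of all 32851 promoter windows of that length. In Mmp12 it stood only before a RefSeq start inside the gene as the deposited table draws it. The other 7 are printed because they belong to the genes that stayed at or near 0, with the element in capitals and 10 bases on each side. The order follows the chromosome, and each is written 5′ to 3′ on the strand of its gene.
Mmp13, plus strand, chr9:7272469-7272495: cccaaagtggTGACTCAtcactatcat
Mmp1b, minus strand, chr9:7388103-7388129: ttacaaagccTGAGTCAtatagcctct
Mmp3, plus strand, chr9:7445766-7445792: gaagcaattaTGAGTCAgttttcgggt
Mmp1a, plus strand, chr9:7464058-7464084: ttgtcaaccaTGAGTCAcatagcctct
Mmp10, plus strand, chr9:7502269-7502295: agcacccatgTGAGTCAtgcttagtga
Mmp20, plus strand, chr9:7628126-7628152: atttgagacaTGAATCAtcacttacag
Mmp7, plus strand, chr9:7692017-7692043: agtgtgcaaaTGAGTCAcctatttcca
In 5 of the 7 the letters were TGAGTCA. Mmp13 held TGACTCA, which is the same element read on the other strand, and Mmp20 held TGAATCA. The element began 35 to 95 bases before the start. A TATA box (TATAAA or its reverse complement TTTATA) was found in 7 genes of the run, against 12.4% of all windows, and a GC box (GGGCGG or its reverse complement CCGCCC) in 0 of them, against 32.7% of all windows. A match is a description of the letters, not of a bound site.

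Adding platelets left no member past the test. By edgeR's quasi-likelihood test with Benjamini-Hochberg adjustment over 11826 genes, 0 of the 12 tested members were called, where 0.211% of all genes were called higher and 0.0507% lower. At an unadjusted p under 0.05 by this test the count was 2, Mmp14 and Timp2, beside 1524 of all 11826 genes. DESeq2 and limma also called 0 members. The median log2 fold change was 0.04 over the members and -0.0011 over all genes tested. FPKM values of the groups did not overlap for 3 members, Mmp14, Timp2 and Adamts7, each lower with platelets, as were 11.2% of all genes, while 0 members and 8.16% of all genes were higher in that way.

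Mmp14 held 15.0, 13.4 and 13.9 FPKM in untreated and 11.7, 11.9 and 13.2 FPKM in platelet libraries, a log2 fold change of -0.18 ± 0.066 (SE, adjusted p 0.316). Timp2 held 326, 307 and 316 against 284, 295 and 293 FPKM, a log2 fold change of -0.11 ± 0.042 (adjusted p 0.345). In both genes the highest platelet library lay only slightly under the lowest untreated one. Adamts7, a matrix protease, had the third smallest p, with 3.69, 3.46 and 3.57 against 2.88, 2.84 and 3.40 FPKM and a log2 fold change of -0.22 ± 0.104 (SE, adjusted p 0.409). For Timp3 the log2 fold change was 0.14, with a 95% interval of -0.04 to 0.32. For Mmp9, the gelatinase also known from neutrophils, it was -0.04 (-0.42 to 0.34), and for Mmp2 0.12 (-0.18 to 0.42). The largest value was that of Adamts1, a proteoglycan-cutting enzyme, at 0.37 (-0.06 to 0.79). Adamts1 met the FPKM filter only with its platelet libraries, where its mean was highest, so this value is a description.

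**Figure D2:**
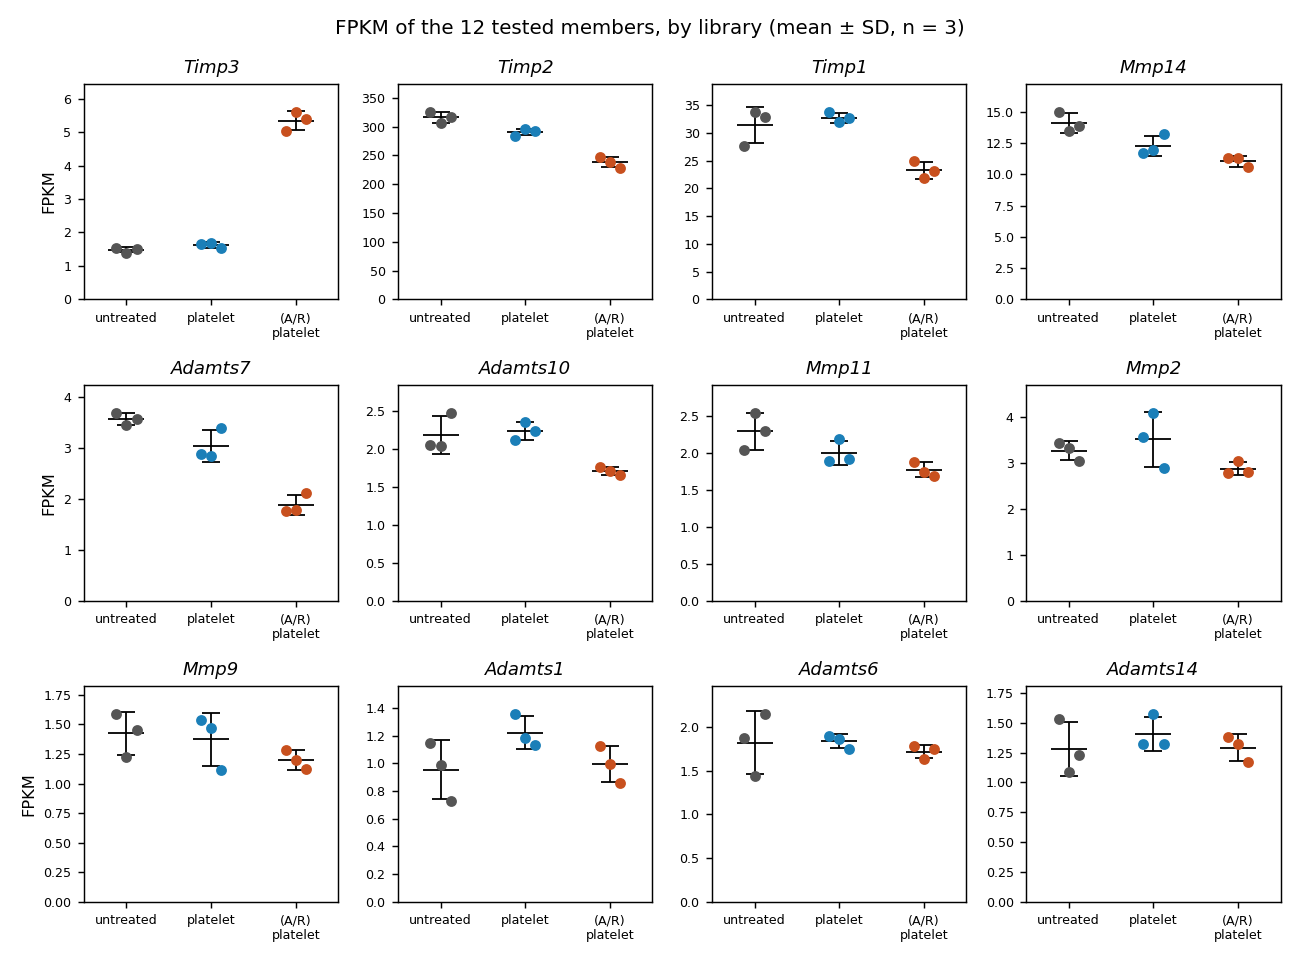
FPKM of the 12 tested members in each library (points), with the mean and SD of the 3 libraries of each group (bars), on axes that start at 0. The (A/R) platelet libraries stand above all others for Timp3 and below all others for Timp2, Timp1, Mmp14, Adamts7, Adamts10 and Mmp11.

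With (A/R) platelets the family split between its inhibitors. Timp3, the matrix-bound inhibitor, rose 3.72-fold over untreated cells, while Timp2, Timp1, Mmp14, Adamts7 and Adamts10 fell. That is 1 of 12 tested members higher and 5 lower by edgeR's test, where 19.3% of all genes were called higher and 19.5% lower. The remaining 6 did not pass. FPKM values of the groups did not overlap for 1 member that was higher and 6 that were lower, against 21.4% and 29.8% of all genes. The median log2 fold change was -0.25 over the 12 members and 0.0013 over all genes tested. Fewer cells of a kind and less RNA per cell cannot be told apart in such bulk libraries. The summed osteoblast markers were also lowest in these libraries (1814 to 1892 CPM, against 2222 to 2294 in untreated cells), and their part in the falls of Timp2, Timp1, Mmp14, Adamts7 and Adamts10 was not tested.

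Timp3 held 1.55, 1.40 and 1.52 FPKM in untreated libraries and 1.66, 1.68 and 1.53 FPKM in platelet libraries. It held 5.04, 5.61 and 5.39 FPKM with (A/R) platelets. All 3 of these lay far above the other 6, which overlapped one another. The log2 fold change was 1.89 ± 0.081 (SE, edgeR adjusted p 9.06e-07) against untreated and 1.75 ± 0.081 (adjusted p 1.61e-06) against platelet libraries. By size it ranked 32 among the 2286 genes called higher against untreated cells. Its log2 fold change against untreated cells is smaller, at 1.35, on the log2(FPKM + 1) scale, which understates changes of low genes. The gene runs from 86300372 to 86349506 on the plus strand of chromosome 10, sharing bases with Syn3, which had at most 25 counts in any library.

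The other inhibitors went the opposite way. Timp2 held 247, 238 and 229 FPKM with (A/R) platelets, all under the lowest of the other 6 libraries. Its log2 fold change was -0.36 ± 0.042 (SE, edgeR adjusted p 0.000205) against untreated and -0.25 ± 0.042 (adjusted p 0.00176) against platelet libraries. Timp1, a secreted inhibitor, held 27.7, 33.8 and 32.8 FPKM in untreated cells, 33.7, 31.9 and 32.7 with platelets and 24.9, 21.9 and 23.2 with (A/R) platelets. Its values in the last group lay under all others, with a log2 fold change of -0.38 ± 0.089 (adjusted p 0.0089) against untreated and -0.45 ± 0.089 (adjusted p 0.00401) against platelet libraries. Timp1 shares bases with Syn1 on the opposite strand of chromosome X, which had 908 to 1419 counts against 1117 to 1823 for Timp1. Since the use of strand is not given, reads of that pair are uncertain. Timp2 shares bases with Cep295nl, at 278 to 793 counts against 48489 or more for Timp2.

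Because Timp2 was so abundant, the rise of Timp3 did little to the sum. The 4 inhibitors summed to 349 ± 6.38 FPKM (SD, n = 3) in untreated cells, 325 ± 4.72 with platelets and 267 ± 9.78 with (A/R) platelets. Timp3 made up 0.426% ± 0.016 of that sum in untreated cells, 0.499% ± 0.027 with platelets and 2.01% ± 0.162 with (A/R) platelets. The Mmp genes summed to 22.8 ± 1.33, 20.6 ± 0.453 and 18.0 ± 0.873 FPKM in the same order, with Mmp14 holding 56.8% to 63.9% of the sum in every library. The ratio of summed Timp to summed Mmp FPKM was 15.4 ± 0.660, 15.8 ± 0.128 and 14.8 ± 0.282. The groups' sums did not overlap for the inhibitors or the Mmp genes. Ratios of the untreated libraries, at 14.6 to 15.8, overlapped those of both other groups. Ratios with plain platelets, at 15.7 to 15.9, lay above those with (A/R) platelets, at 14.5 to 15.1. The Adamts genes summed to 11 ± 0.80, 11 ± 0.263 and 8.44 ± 0.170 FPKM. Sums over members are given as descriptions, with no test.

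**Figure D3:**
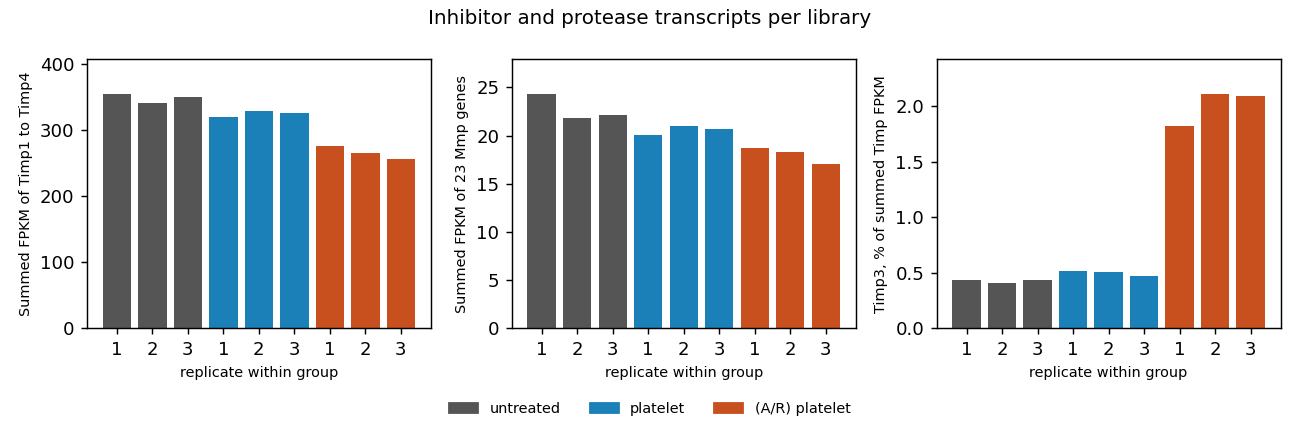
Summed FPKM of the 4 Timp genes (left) and of the 23 Mmp genes (middle), and the percent of the Timp sum held by Timp3 (right), as bars for each library with the replicate number on the horizontal axis. The sums were lowest in the (A/R) platelet libraries, at 257 to 277 and 17.1 to 18.7 FPKM, where the Timp3 share was 1.82% to 2.11%.

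Among the proteases, Mmp14 and the gelatinases differed in their calls. Mmp14, which cuts collagen at the cell surface, held 11.3, 11.3 and 10.6 FPKM with (A/R) platelets, under all other libraries. Its log2 fold change was -0.30 ± 0.066 (SE, edgeR adjusted p 0.00637) against untreated cells. Against platelet libraries it was -0.12, with a 95% interval of -0.27 to 0.03 (adjusted p 0.212), and it did not pass. Mmp2, whose precursor MMP-14 activates, held 3.43, 3.34 and 3.04 FPKM in untreated cells, 3.56, 4.09 and 2.9 with platelets and 2.78, 3.05 and 2.81 with (A/R) platelets. These groups overlapped, and Mmp2 was not called against untreated (-0.13, -0.43 to 0.17) or platelet libraries (-0.25, -0.55 to 0.05). Mmp9 was not called either (-0.19, -0.57 to 0.19, against untreated cells), with 1.59, 1.23 and 1.46 FPKM in untreated and 1.29, 1.20 and 1.12 with (A/R) platelets. For the stromelysin-3 gene Mmp11 the groups did not overlap (2.04, 2.54 and 2.3 against 1.88, 1.75 and 1.69 FPKM), yet the log2 fold change of -0.32 ± 0.131 missed the threshold (adjusted p 0.0843).

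Of the 5 Adamts genes that passed the FPKM filter, Adamts7 had the largest log2 fold change with (A/R) platelets. This enzyme cuts cartilage oligomeric matrix protein, and its gene held 3.69, 3.46 and 3.57 FPKM in untreated cells, 2.88, 2.84 and 3.40 with platelets and 1.76, 1.77 and 2.11 with (A/R) platelets. The 3 groups did not overlap. Its log2 fold change was -0.87 ± 0.105 (SE, edgeR adjusted p 0.000222) against untreated and -0.65 ± 0.104 (adjusted p 0.00134) against platelet libraries. The gene spans 90163069 to 90208071 of chromosome 9, plus strand, far from the Mmp run. It shares bases with Tbc1d2b on the opposite strand, which had 2018 to 3777 counts, so part of the reads of Adamts7 is uncertain. Tbc1d2b averaged 3342 counts in untreated cells and 2476 with (A/R) platelets, not scaled to library size. Untreated libraries held 37465049 to 54240592 counts and (A/R) platelet libraries 45150198 to 61366030, so these means understate the fall of Tbc1d2b.

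Adamts10, a protease tied to fibrillin microfibrils, held 2.04, 2.03 and 2.47 FPKM in untreated cells, 2.12, 2.36 and 2.24 with platelets and 1.76, 1.70 and 1.65 with (A/R) platelets. Its log2 fold change was -0.30 ± 0.096 (edgeR adjusted p 0.0328) against untreated and -0.35 ± 0.096 (adjusted p 0.0187) against platelet libraries. The call against untreated cells was lost when untreated replicate 3 was left out (adjusted p 0.0938, log2 fold change -0.21) or any (A/R) platelet replicate (0.064, 0.0746 and 0.101). The call against platelet libraries was lost when platelet replicate 2 was left out (0.0686), or (A/R) platelet replicate 2 (0.0514) or 3 (0.0673). Adamts1, Adamts6 and the procollagen N-proteinase gene Adamts14 were not called against untreated cells, with log2 fold changes of 0.11 (-0.32 to 0.53), -0.03 (-0.34 to 0.28) and 0.06 (-0.29 to 0.41).

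Set directly against platelet libraries, (A/R) platelet libraries had 1 member higher, Timp3, and 4 lower, Timp1, Timp2, Adamts7 and Adamts10, with the values given above. Over all genes 17.1% were called higher and 17.1% lower. Groups did not overlap in FPKM for 1 member that was higher and 7 that were lower, against 21.3% and 27.6% of all genes. The 7 were the 4 called lower and Mmp14, Mmp11 and Adamts1, which were not called. Adamts1 met the FPKM filter only with its platelet libraries, where its mean was highest, so its place among the 7 is a description. Each pair of comparisons shares 3 libraries, so their values are not independent. The members' median log2 fold change was -0.20, beside 0.0019 over all genes.

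**Figure D4:**
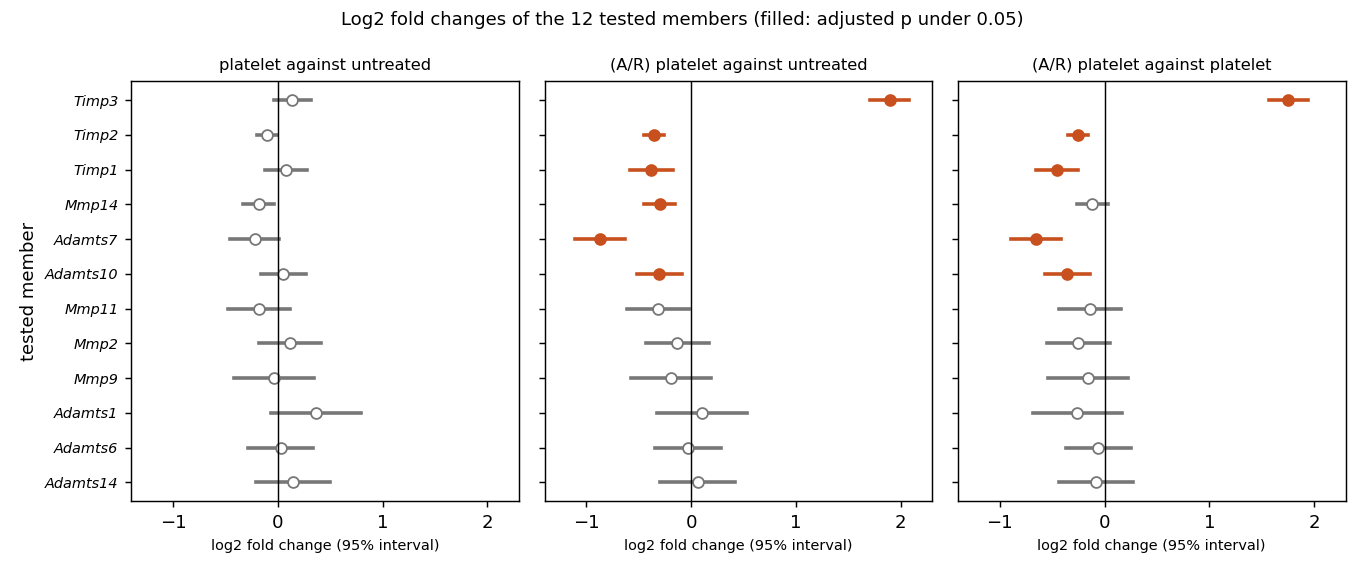
Log2 fold changes (horizontal axis) of the 12 tested members with 95% intervals from edgeR, in the 3 comparisons, with filled points at an adjusted p under 0.05. No point is filled for platelet against untreated libraries, and Timp3, at 1.89 and 1.75, is the single filled point to the right of 0 in the other 2 panels.

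The promoter sequences of 3 members that changed are shown so that Timp3 can be set beside Timp1 and Mmp14, which went the other way. Each run covers the bases upstream of both the RefSeq start and the start in the deposited table, on the plus strand, with GC boxes in capitals.
Timp3, chr10:86300162-86300371: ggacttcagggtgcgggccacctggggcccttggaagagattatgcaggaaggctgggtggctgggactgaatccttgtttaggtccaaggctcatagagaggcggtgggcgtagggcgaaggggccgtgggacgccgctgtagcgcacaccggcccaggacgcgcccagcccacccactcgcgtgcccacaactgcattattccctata
Timp1, chrX:20869916-20870165: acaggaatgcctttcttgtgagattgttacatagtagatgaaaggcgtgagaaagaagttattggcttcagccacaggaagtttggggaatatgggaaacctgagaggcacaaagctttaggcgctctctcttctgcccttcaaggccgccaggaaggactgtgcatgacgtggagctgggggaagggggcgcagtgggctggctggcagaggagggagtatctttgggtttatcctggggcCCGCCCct
Mmp14, chr14:54431348-54431597: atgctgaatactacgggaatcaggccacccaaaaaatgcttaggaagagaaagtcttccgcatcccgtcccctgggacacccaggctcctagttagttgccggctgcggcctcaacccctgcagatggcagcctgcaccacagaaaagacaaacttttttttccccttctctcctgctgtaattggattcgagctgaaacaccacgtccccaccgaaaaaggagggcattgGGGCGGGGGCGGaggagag
The Timp3 stretch of 210 bases was 63.8% G and C, against 54.4% for Timp1 and 55.2% for Mmp14, whose stretches span 250 bases. None of the 3 held the AP-1 element, the TATA box or the amino acid response element TGATGNAA (reverse complement TTNCATCA), which is bound by ATF4 with C/EBP partners and occurred in 3.45% of all windows. Timp1 held 1 GC box and Mmp14 held 2. The RefSeq window of Timp3 also holds 1, in bases that the deposited table counts as part of the gene and that are therefore not printed. That letters are missing from a window says nothing of the factor.

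Members under the filter were compared in the fit with edgeR's own count filter, which tested 16315 genes and took in 8 further members. In it 3 of the 8, Adamts4, Mmp28 and Mmp24, were called lower with (A/R) platelets than in untreated cells, where 13.9% of all genes were called lower. Mmp24 passed that filter only through the groups where it was high, so its part in this count is a description only. Adamts4 was also lower than with plain platelets, where 12.3% of all genes were. Adamts4, an aggrecanase, held 0.72, 0.573 and 0.629 FPKM in untreated cells, 0.52, 0.807 and 0.629 with platelets and 0.264, 0.294 and 0.456 with (A/R) platelets. Its log2 fold change was -0.85 ± 0.255 (SE, adjusted p 0.033) against untreated and -0.90 ± 0.255 (adjusted p 0.0295) against platelet libraries. The 3 (A/R) platelet values lay under the other 6.

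Mmp28, the gene of epilysin, held 1.07, 0.63 and 0.759 FPKM in untreated and 0.584, 0.353 and 0.36 with (A/R) platelets, a log2 fold change of -0.85 ± 0.273 (adjusted p 0.0428). Mmp24, a membrane-type enzyme, had 32, 23 and 20 counts in untreated cells, 12, 19 and 18 with platelets and 0, 0 and 7 with (A/R) platelets. It passed the filter only through the other 2 groups, so its call (adjusted p 0.0405) is given as a description, and it shares bases with the abundant BC029722. Since strand use is not given, reads of low members that share bases with other genes are uncertain. With no filter at all, 25323 genes were tested and none of these 3 passed against untreated cells (adjusted p 0.0556 for Adamts4, 0.0681 for Mmp28 and 0.0638 for Mmp24), where 7.69% of all genes were called lower. Adamts4 still passed against platelet libraries (0.0498, with 6.68% of all genes lower). With plain platelets none of these low members was called by edgeR in either fit, where 0.0245% (edgeR's filter) and 0.0118% (no filter) of all genes were called lower. At an unadjusted p under 0.05 that count was also 0, and no other tool was run on them. Mmp19 and Adamts12 did not pass in any comparison of the fit with edgeR's filter. For Mmp19 the values were 0.558, 0.452 and 0.479 FPKM in untreated cells, 0.347, 0.26 and 0.308 with platelets and 0.44, 0.111 and 0.388 with (A/R) platelets. Mmp12 had 12, 11 and 0 counts in untreated cells, 8, 28 and 0 with platelets and 0 in each (A/R) platelet library, too few fragments to compare.

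**Figure D5:**
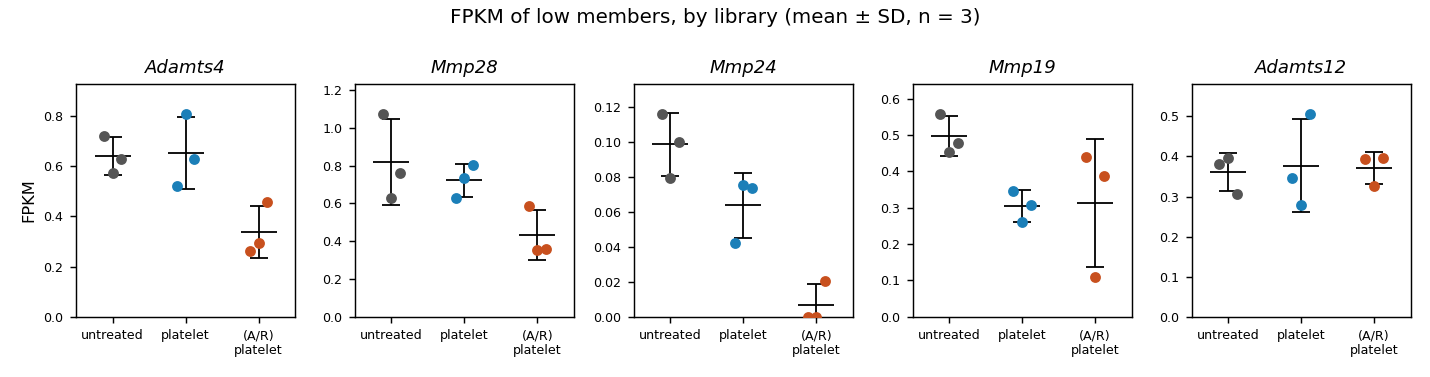
FPKM of 5 members that did not pass the filter, in each library (points) with the mean and SD of each group (bars), on axes that start at 0. The (A/R) platelet libraries lie under all others for Adamts4, at 0.264 to 0.456 FPKM, and for Mmp28 and Mmp24. For Mmp19 they overlap the plain platelet libraries, and both of these groups lie under the untreated one. For Adamts12 all groups overlap.

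Genes that work with the family were read from lists drawn up with earlier results of these data known. Against untreated cells, 19.3% of all genes were called higher and 19.5% lower with (A/R) platelets, the shares against which these counts stand. Of 16 tested genes for activation, anchoring and clearance, 2 rose and 7 fell with (A/R) platelets against untreated cells (median log2 fold change -0.23, beside 0.0013 for all genes). Lrp1, the receptor that takes up protease and inhibitor complexes, fell by 0.63 on the log2 scale (edgeR adjusted p 0.000617). The heparan sulfate carrier Sdc1 fell by 0.64 and the matricellular Sparc by 0.38. Furin, which cuts the precursors of MMP-14 and ADAMTS proteases, was lower at -0.31 ± 0.057 (SE, adjusted p 0.00278) against platelet libraries.

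Of 10 tested ADAM and ADAMTS-like genes, 3 (beside 19.3% of all genes) rose and 0 (beside 19.5%) fell against untreated cells. The 3 were Adam8 (0.92 ± 0.055, SE), Adamtsl5 (0.53 ± 0.094) and Adamtsl3 (0.28 ± 0.048). The remaining 7 were not called, and the median of the 10 was 0.13. Against platelet libraries 4 rose and 1 fell, where 17.1% of all genes were called in each direction. Among 9 other matrix-degrading proteases 3 rose, including the serine protease Htra1 (0.46) and the cathepsin Ctsl (0.33), and 3 fell, including Ece1 (-0.72), where 19.3% and 19.5% of all genes did. Plau, urokinase, was lower against platelet libraries (-0.58 ± 0.072, adjusted p 0.000325).

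Of 12 tested matrix substrates, 3 rose and 6 fell against untreated cells (19.3% and 19.5% of all genes), with Col3a1, a fibrillar collagen, at -0.90 and the laminins Lamc1 and Lamb1 at 0.57 and 0.49. Of 16 tested transcription factors and cytokines known to act on Mmp genes, 4 rose and 3 fell, shares near those of all genes (19.3% and 19.5%). Fosl1, a partner in AP-1, averaged 66.2 FPKM in untreated cells, 85.5 with platelets and 118 with (A/R) platelets (log2 fold change 0.88 ± 0.046, SE, adjusted p 2.35e-06, against untreated). Junb was at 0.83 and Fosl2 at -0.30. With plain platelets, where 0.211% of all genes were called higher, 2 of the 16 rose, Fosl1 (0.38) and Jun (0.43), and 0 genes of the other 4 lists passed edgeR's test.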

How the data were processed

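RNA was sequenced from 9 libraries of K7M2 cells, made with an mRNA kit per the labels' protocols. Submitters' processing notes name GRCm38 (mm10). For the aligner, the quantifier and strand use, the sources used here give nothing. All 46 members are in GENCODE M21, 39 with the same coordinates and strand. The authors deposited FPKM and, beside them, estimated counts, whole numbers with a pile-up of genes at 4 (898 to 1116 per library, against 286 to 342 at 3).

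The rule for members used no measured value, but the family and the lists were taken up with earlier results of these data known. Genes reaching 1 FPKM in 3 or more libraries were tested with edgeR 4.0.16 in R 4.3.3 (TMM scaling, quasi-likelihood F test, 1 mean per group, 9 libraries in 1 fit). A call is an adjusted p under 0.05, Benjamini-Hochberg over 11826 genes. The SE is the log2 fold change divided by the root of F. Values per library are given for called members and for tested ones that were abundant, separate between groups or in question. Alternatives used DESeq2 1.42.0, limma 3.58.1 on log2(FPKM + 1) or log2(FPKM + 0.1), other scalings, filters and libraries left out. The fit was tested on simulated counts. Within groups the chi-square per gene of counts divided by 4 was 9.80 to 17.3, so no library was a repeat deposit. Motifs were searched by exact letters on both strands. Values of 1 overlapping gene are not reported here.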

Additional observations from a re-analysis of the deposited data

How the results depend on the processing

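Over 20 alternatives each, Timp3, Timp2, Timp1 and Adamts7 kept their calls and directions against untreated and platelet libraries, and Mmp14 against untreated ones. The counts of called members against untreated cells stayed at 1 higher, with 4 to 7 lower, and against platelet libraries at 1 higher, with 3 to 5 lower. The 7 came from edgeR's own filter, which tested 20 members instead of 12. Of all genes, 13.9% were called lower there against untreated cells, 7.69% with no filter (32 members) and 19.5% in the main fit. Against platelet libraries these shares were 12.3%, 6.68% and 17.1%. Platelet against untreated cells gave 0 calls throughout. Timp3 against untreated ranged from 1.35 to 1.94. Adamts10 lost its call against untreated in 8 alternatives, among them no filter (adjusted p 0.0848), edgeR's own filter (0.0536) and the 6 libraries of the comparison (0.0573). Mmp11 was called against untreated with limma (0.042 and 0.0418), and Mmp2 against platelet libraries without platelet replicate 3 (0.0417).

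Same-numbered libraries did not deviate together (correlations of -0.03 to 0.05 over 9 pairs), so no pairing by number was seen. Such correlations cannot show that same-numbered libraries were made apart. With the replicate number as a block, 1 member was higher and 4 lower against both other groups and 0 against untreated with plain platelets. Adamts10 against untreated was then at an adjusted p of 0.062.

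Directions that turned without 1 library belonged to members that were not called. Their log2 fold changes for platelet against untreated ranged from -0.0061 to 0.13 (Timp1), -0.13 to 0.088 (Mmp9), -0.0068 to 0.24 (Mmp2) and -0.12 to 0.16 (Adamts6). For (A/R) platelet against untreated they ranged from -0.056 to 0.26 (Adamts1), -0.18 to 0.10 (Adamts6) and -0.048 to 0.21 (Adamts14), and against platelet libraries from -0.13 to 0.0090 (Adamts14). The cause was not tested. Depth limits the members under the filter, most of which rest on few fragments.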
